A study of Mus musculus with 25 samples.

Results

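BRCA1 function can be removed by deleting part of the gene or reduced by silencing its mRNA, and both were used here at the same replication fork barrier. All translocation junctions listed for Tus-expressing BRCA1del cells with a control small interfering RNA (siRNA) and for Tus-expressing BRCA1flox cells with a BRCA1 siRNA were combined, which gave 2329 of the 11867 junctions of the series. The BRCA1del siLuciferase group held 1425 of them and the BRCA1flox siBRCA1 group 904. The groups were chosen by their labels and all their junctions were kept, although earlier results of these data were known.

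The cells were mouse embryonic stem cells, grown on embryonic fibroblast feeders, with a 4-kb GFP reporter cassette in the ROSA26 locus. A Cas9 cut placed 30 kb from the cassette was the bait, and junctions between the bait end and the cassette were read by LAM-HTGTS, in which DNA attached to the bait end is copied from a primer beside the cut, amplified and sequenced. Tus and the siRNA were delivered by transfection and DNA was taken 48 h later. The series compared 10 groups of 25 samples in all, which differed in the delivered effector, the genotype and the siRNA.

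The first group had the genotype that the labels write as BRCA1del/exon11, Tus, and siRNA against luciferase, which has no target in these cells, and comprised 3 samples. The second had the genotype BRCA1flox/exon11, Tus, and siRNA against BRCA1, and comprised 2 samples. The "/exon11" stands in both genotype names and is read here as an allele common to both lines, since the labels do not spell the alleles out. For context, values are also given for Tus-expressing BRCA1del cells with siBRCA1 (3 samples), which carry both losses, and for Tus-expressing BRCA1flox cells with siLuciferase (2 samples), which carry neither. Genotype, cell line and siRNA all change together between the first and the second group, so that their contributions cannot be told apart. The labels do not say whether a line is 1 clone or whether samples are separate cultures, and neither BRCA1 mRNA nor protein was measured in these files, so the depth of the knockdown is not known here.

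BRCA1 is a tumour suppressor that promotes the resection of broken DNA ends during homologous recombination and also acts on stalled replication forks. Exon 11 is the large central exon of the gene, and its deletion leaves a shortened protein. The labels do not say which part of the gene the BRCA1del allele lacks. An siRNA lowers the mRNA for a limited time and leaves some of the protein. Tus is a bacterial protein that binds Ter elements and arrests replication forks that meet it from one side. Broken ends can be sealed directly, giving blunt joins or short insertions, or by pairing of a few bases present at both ends, which leaves microhomology at the join.

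Each junction joined the same mouse sequence, the bait end at ROSA26 on chromosome 6, to a site in the cassette. The last 60 bases of the bait before the Cas9 cut are given below, as read most often in the deposited reads. The place of the cut was inferred from these reads. The bases are shown because the words in capitals were used again and again as microhomology in both groups.

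bait end, 5′ to 3′ up to the cut: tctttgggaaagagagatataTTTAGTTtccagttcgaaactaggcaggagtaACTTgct

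ACTT ends 3 bases before the cut and TTTAGTT ends 32 bases before it, and each occurs once in the 60 bases shown. A join that used either word there had, by definition, lost those 3 or 32 bases. In the array, 34 joins used ACTT, 20 in BRCA1del siLuciferase and 14 in BRCA1flox siBRCA1, all 34 at the marked place. TTTAGTT, the longer word, joined 8 BRCA1del siLuciferase and 7 BRCA1flox siBRCA1 array junctions, all 15 at the marked place.

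Positions are 1-based coordinates of the cassette as the authors' tables give them, not of a genome build. Of the 6 Ter elements, the first 3 occupied 3049 to 3071, 3077 to 3099 and 3105 to 3127. Elements 4 to 6 occupied 3166 to 3188, 3194 to 3216 and 3222 to 3244. They interrupted an EGFP sequence that ran from 2637 to 3604. A site for the endonuclease I-SceI followed at 3259 to 3276. The array window was 3025 to 3276, the cassette body 1 to 3616 and the polyA region 3617 to 3928. A join is called leftward where the joined cassette DNA ran from the junction toward position 1, and rightward where it ran toward position 3928.

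Each table pools its group's samples, but read names carry the sequencing run, and each run of a group was taken as 1 library. BRCA1del siLuciferase had 602, 570 and 253 junctions in runs B, C and D, and BRCA1flox siBRCA1 had 679 and 225 in runs C and D. Libraries of the whole series held 148 to 933 junctions. Runs C and D carried the same leading 6-base barcode within a group in 8 of 8 Tus groups. Body joins were then matched on strand, position, far end of the cassette part and number of bait bases lost. Despite the shared barcode, 0 of 180 body joins of BRCA1del siLuciferase in run D recurred in the group's own run C. The same count was 0 of 161 for BRCA1flox siBRCA1, and between 0% and 1.11% of these joins recurred in the run C libraries of the 7 other Tus groups. No read name was repeated. How the authors treated duplicates is not known here. Had repeats been removed across the runs of a group, a count of 0 in the own run would follow. The count therefore cannot show that runs C and D are separate libraries.

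The question of the comparison was whether the deletion and the siRNA left the same spectrum of joins. Over 13 shares of joins that describe place, orientation and structure, 0 of 13 (0.0%) differed after adjustment by the exact Mantel-Haenszel test within runs C and D, and 2 of 13 had an unadjusted p under 0.05. Fisher's exact test on all pooled junctions also called 0 of 13. The difference had the same sign in both runs for 7 shares and opposite signs for 6. These tests cover counting error only, since joins of the same library are not replicates of a condition. Reads amplified from the same molecule would not be independent either. Joins that match in strand, position, far end of the cassette part and bait bases lost were therefore counted once. The difference in the array share of body joins was the same, 6.55 points, as were the other shares counted among body or array joins. There was thus nothing to remove in the body that could move them, and this is no check on such reads. Over libraries, 3 against 2, an exact two-sided permutation test cannot go below p = 0.1, and differences between samples may be technical.

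**Figure D1:**
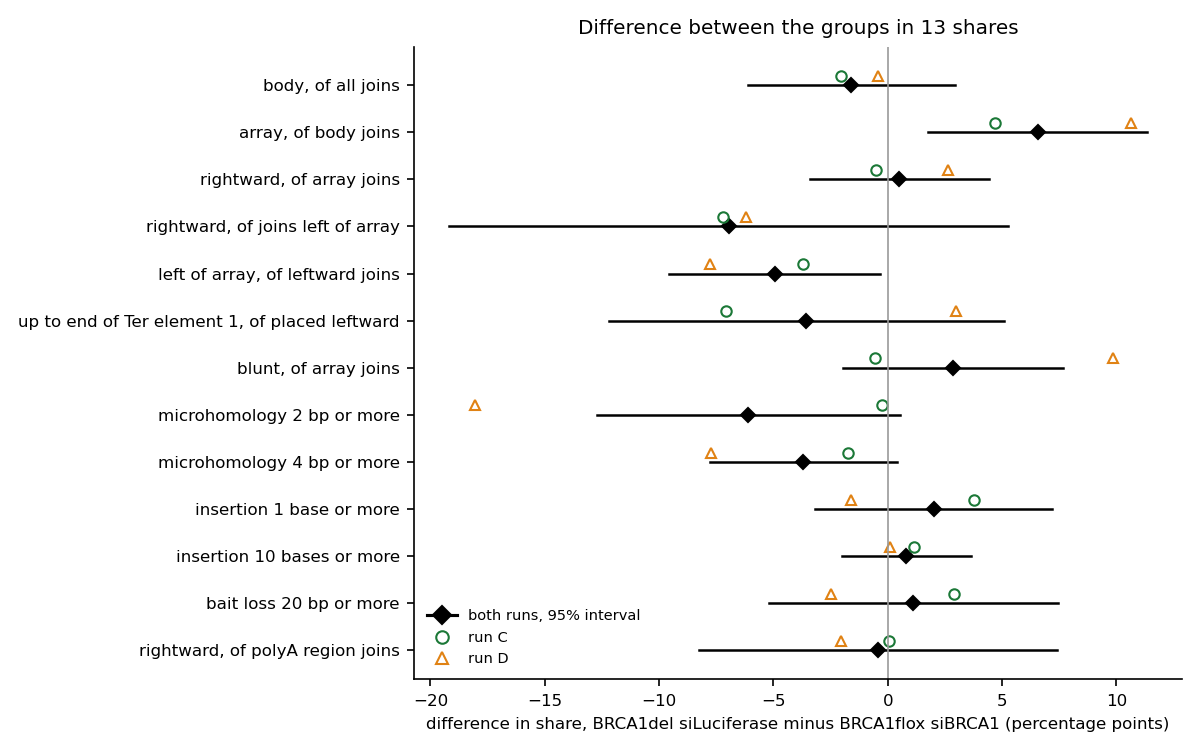
Difference in each of 13 shares, BRCA1del siLuciferase minus BRCA1flox siBRCA1, in percentage points. Diamonds with bars are Mantel-Haenszel differences over runs C and D with 95% intervals, open circles run C and open triangles run D; the share of array joins among body joins lies at 6.55 points, and the microhomology share differs between the runs, at -0.270 and -18.1 points.

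The share of junctions in the cassette body was compared first. In BRCA1del siLuciferase it was 68.8%, 59.6% and 71.1% of all junctions in runs B, C and D, against 61.7% and 71.6% in runs C and D of BRCA1flox siBRCA1. Run C was the lower run in both groups and the libraries of the groups overlapped. The difference was -1.60 percentage points with a 95% interval of -6.13 to 2.93 (exact Mantel-Haenszel p = 0.512, adjusted p = 0.740). With each position and strand counted once it was -5.77 points (exact Mantel-Haenszel p = 0.0456, adjusted p = 0.119). The body share was 62.4%, 54.3% and 66.0% in BRCA1del siBRCA1 and 77.4% and 87.1% in BRCA1flox siLuciferase. In cells that received the control the labels call EV in place of Tus (BRCA1del siFANCM), 5 of 468 junctions lay in the body, a share of 1.06% and 1.07% in the 2 libraries.

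Within the body, joins concentrated on the Ter array in both groups. Array joins made up 79.0%, 79.4% and 88.9% of body joins in runs B, C and D of BRCA1del siLuciferase, against 74.7% and 78.3% in runs C and D of BRCA1flox siBRCA1. The lowest BRCA1del siLuciferase library lay above the highest BRCA1flox siBRCA1 library, by less than 1 percentage point. This was 1 of 4 shares, of the 13 compared, whose libraries did not overlap, and 0.0% of the 13 were called. The libraries can be split 3 against 2 in only 10 ways, so such separation is frequent without any difference between groups. It also includes run B, which BRCA1flox siBRCA1 lacks. The libraries of runs C and D alone did not overlap either, but these can be split in still fewer ways. The same holds for every share below whose libraries did not overlap. The means were 82.4% ± 5.60 (SD, n = 3) and 76.5% ± 2.52 (SD, n = 2). The difference within runs was 6.55 points, with an interval of 1.77 to 11.3, and did not pass after adjustment (exact Mantel-Haenszel p = 0.00897, adjusted p = 0.117). It was 4.71 points in run C and 10.6 points in run D. The Wilson 95% intervals of the run D libraries were 83.5% to 92.7% in BRCA1del siLuciferase and 71.3% to 83.9% in BRCA1flox siBRCA1, and those of run C were 74.8% to 83.4% and 70.3% to 78.6%. BRCA1del siBRCA1 libraries had 80.6%, 84.2% and 80.5% and BRCA1flox siLuciferase libraries 67.9% and 71.8%.

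The counterpart was the share of leftward body joins that lay left of the array. It was 17%, 14.8% and 9.74% in runs B, C and D of BRCA1del siLuciferase, against 18.5% and 17.5% in runs C and D of BRCA1flox siBRCA1. Again no library of the groups overlapped, and the lowest value belonged to run D of BRCA1del siLuciferase, which rested on 15 such joins. The difference was -4.95 points with an interval of -9.55 to -0.344 (exact Mantel-Haenszel p = 0.0406, adjusted p = 0.264). The share in BRCA1flox siLuciferase was 24% and 21.6%, above every library of either group, and in BRCA1del siBRCA1 it was 16.3%, 13% and 14.9%. This share and the array share count many of the same joins and are not independent.

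Joins left of the array fell mostly within EGFP in both groups. Of 159 such joins in BRCA1del siLuciferase, 109 (68.6%) lay in EGFP, and of 130 in BRCA1flox siBRCA1, 85 (65.4%) did. The median position of the leftward ones was 2876, 2952 and 2972 in runs B, C and D of BRCA1del siLuciferase, against 2894 and 2852.5 in BRCA1flox siBRCA1. The median of run B in BRCA1del siLuciferase lay between the medians of the BRCA1flox siBRCA1 libraries, and those of runs C and D lay nearer to the array.

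**Figure D2:**
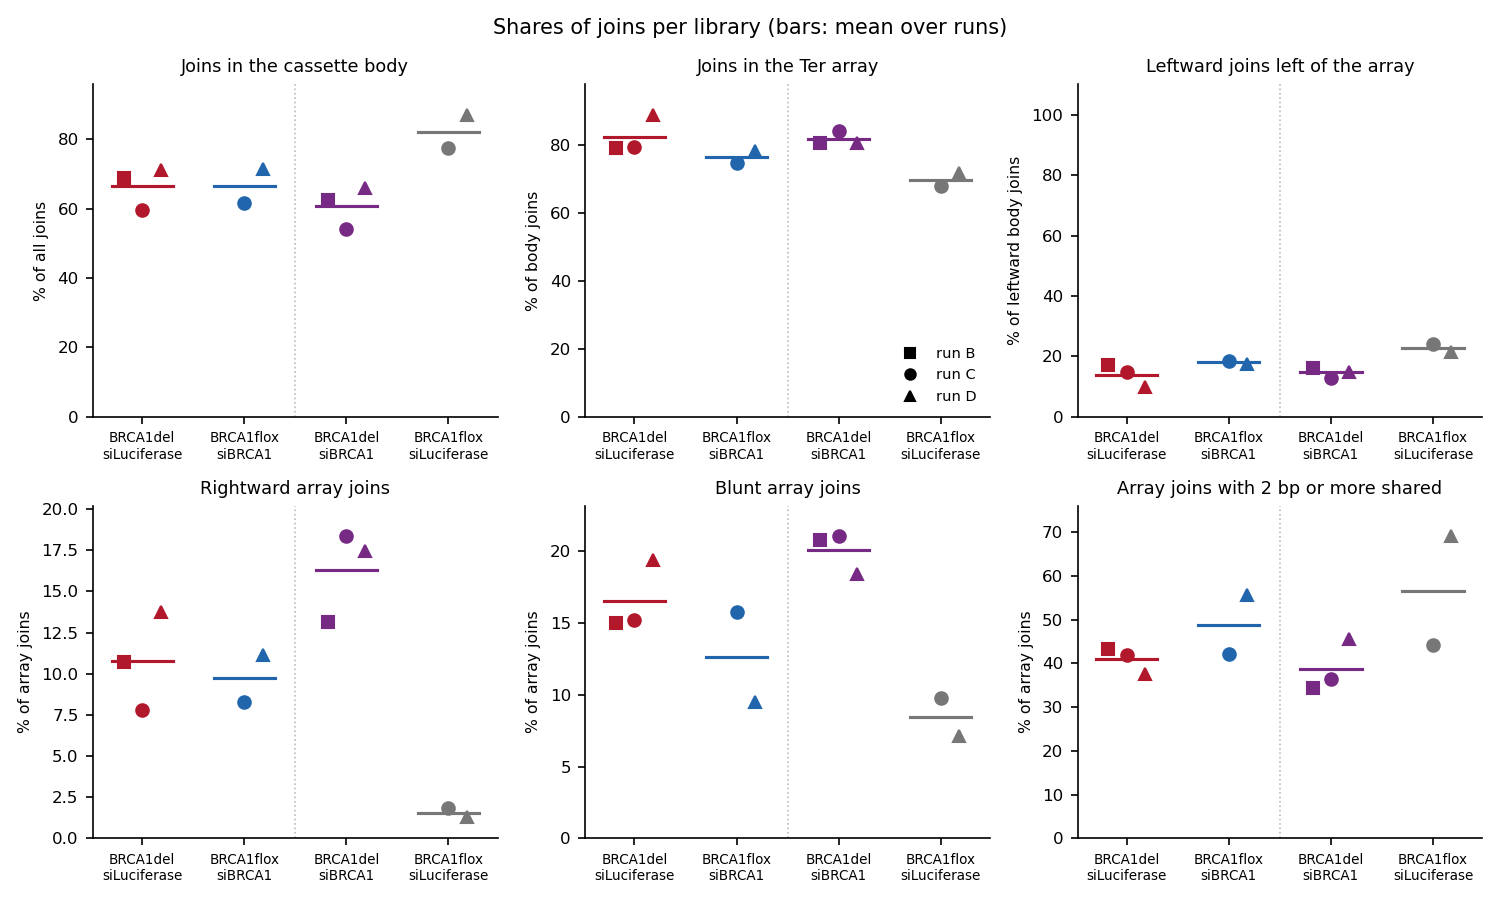
Shares of joins in each library, in percent, for 6 measures, with BRCA1del siLuciferase and BRCA1flox siBRCA1 left of the dotted line and BRCA1del siBRCA1 and BRCA1flox siLuciferase right of it. Points are libraries (square run B, circle run C, triangle run D) and bars their means; rightward array joins lie between 7.78% and 13.8% in the first 2 groups and at 1.84% and 1.29% in BRCA1flox siLuciferase.

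Most array joins ran leftward, and the minority that ran rightward was of like size with the deletion and with the siRNA. Rightward joins made up 10.7%, 7.78% and 13.8% of array joins in runs B, C and D of BRCA1del siLuciferase, against 8.31% and 11.1% in runs C and D of BRCA1flox siBRCA1. The libraries interleaved, with run C the lower of the shared runs in both groups. In run D, the smaller of the shared runs, the Wilson 95% intervals were 9.26% to 19.9% in BRCA1del siLuciferase and 6.73% to 17.8% in BRCA1flox siBRCA1. The means were 10.7% ± 2.99 (SD, n = 3) and 9.71% ± 1.98 (SD, n = 2). The difference was 0.508 points with an interval of -3.4 to 4.41 (exact Mantel-Haenszel p = 0.817, adjusted p = 0.885). BRCA1del siBRCA1 libraries had 13.1%, 18.4% and 17.5%, all above the BRCA1flox siBRCA1 libraries and overlapping those of BRCA1del siLuciferase, and BRCA1flox siLuciferase libraries had 1.84% and 1.29%. These context values were not tested here.

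Left of the array, rightward joins were a larger minority. Their share was 24.7%, 23.7% and 21.1% in BRCA1del siLuciferase, from 20 of 81, 14 of 59 and 4 of 19 joins, against 30.9% and 27.3% in BRCA1flox siBRCA1, from 30 of 97 and 9 of 33 joins. The libraries did not overlap, but the difference of -6.96 points had an interval of -19.2 to 5.26 (exact Mantel-Haenszel p = 0.337, adjusted p = 0.730). BRCA1del siBRCA1 spanned 20.3% to 34.8% and BRCA1flox siLuciferase 24.6% to 31.2%.

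A repeat within the array means that a read ending inside it can fit at more than a single place. Medians and shares by element within the array were therefore read only from placed joins. Reads of placed joins ran on into 20 bp or more of the unique flank. Counts of single sites, given further below, used all body joins, placed or not. Placed joins were 489 of 679 leftward array joins in BRCA1del siLuciferase and 251 of 399 in BRCA1flox siBRCA1. This condition favours leftward joins near the left end of the array and rightward joins near its right end. The placed share of leftward joins was 75.7%, 65.5% and 76.1% in runs B, C and D of BRCA1del siLuciferase and 60.3% and 69.6% in runs C and D of BRCA1flox siBRCA1, a difference in reach that moves with the groups and whose part in the positions was not tested.

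The leftward joins of both groups centred on the end of Ter element 1. Their median position was 3071, 3073 and 3069 in runs B, C and D of BRCA1del siLuciferase, against 3069 and 3071 in runs C and D of BRCA1flox siBRCA1, all within 2 bp of the last base of that element. In BRCA1flox siLuciferase the medians were 3089 and 3078, past the element. Joins at or before the end of Ter element 1 made up 51.1%, 47.9% and 54.3% of placed leftward joins in BRCA1del siLuciferase, against 54.9% and 51.3% in BRCA1flox siBRCA1. The difference was -3.56 points, with an interval of -12.2 to 5.08 (exact Mantel-Haenszel p = 0.429, adjusted p = 0.740), and its sign turned between run C, at -7.06 points, and run D, at 3.0 points. The same share was 33.0% and 41.6% in BRCA1flox siLuciferase and 55.1% to 56.5% in BRCA1del siBRCA1.

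Pooled over runs, the groups were described element by element. Stretches before Ter element 1 held 14.3% of placed leftward joins in BRCA1del siLuciferase and 19.5% in BRCA1flox siBRCA1. Ter element 1 itself held 36.4% and 34.3%, and the stretch from there to the end of Ter element 3 held 37.8% and 39.0%, in BRCA1del siLuciferase and BRCA1flox siBRCA1. From Ter element 4 to the end of Ter element 6 the shares were 8.18% in BRCA1del siLuciferase and 5.98% in BRCA1flox siBRCA1. Runs did not agree for these last elements, with 10.4% in BRCA1del siLuciferase against 4.62% in BRCA1flox siBRCA1 in run C, and 4.76% against 8.97% in run D. For Ter element 1 the values were 30.1% against 35.3% in run C and 43.8% against 32.1% in run D. Before Ter element 1 the 3 BRCA1del siLuciferase libraries had 13.6%, 17.8% and 10.5% and the BRCA1flox siBRCA1 libraries 19.7% and 19.2%, without overlap, in a stretch that was looked at after its values were seen.

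**Figure D3:**
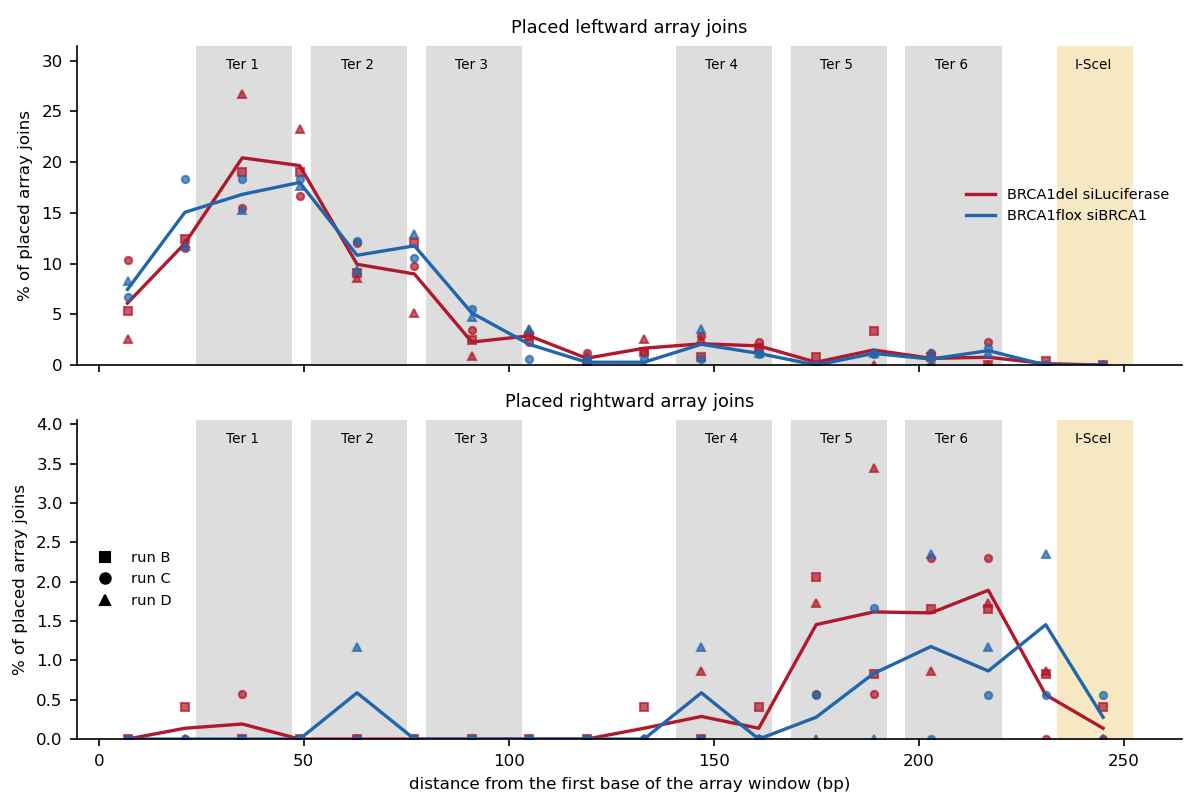
Placed array joins by distance from the first base of the array window, in bins of 14 bp, as percent of placed array joins of a library, leftward above and rightward below. Lines are means over libraries of BRCA1del siLuciferase and BRCA1flox siBRCA1, points are libraries and shading marks the Ter elements and the I-SceI site; leftward joins are most frequent from 28 to 55 bp in both groups, across Ter element 1 and the start of Ter element 2, and rightward joins are few and lie mostly from Ter element 4 on, on scales that differ between the panels.

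Placed rightward joins lay at the other end of the array, which the condition for placing favours. The median placed position was 3221 in both groups. It came from 43 of 78 rightward array joins in BRCA1del siLuciferase and 14 of 40 in BRCA1flox siBRCA1. Where the joins that were not placed lay cannot be told. From Ter element 4 to the end of Ter element 6 there were 32 of 43 in BRCA1del siLuciferase and 8 of 14 in BRCA1flox siBRCA1, and past Ter element 6 there were 8 of 43 and 5 of 14. With only 7 placed joins in each BRCA1flox siBRCA1 library, differences in this distribution were not tested.

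Single sites were used repeatedly in both groups, counted here over all body joins, whether or not they were placed. The site given for a join that was not placed can be ambiguous within the repeat. Of 18 combinations of position and strand with at least 10 body joins in runs C and D, 0 (0.0%) were called by the exact Mantel-Haenszel test, and 0 had an unadjusted p under 0.05. Of 70 with at least 5 joins 0 were called and 1 had an unadjusted p under 0.05, and Fisher's exact test on pooled junctions called 0 of 34. The 10 most frequent sites were all leftward. Of these, 9 lay in Ter element 1, and the other at 3042, just before it.

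Position 3063 was the most frequent, with 15 joins in BRCA1del siLuciferase and 6 in BRCA1flox siBRCA1, or 1.61% and 1.03% of body joins. Of these, 14 and 4 were placed, while all joins at 3052 were. Position 3042 ran the other way, with 9 joins (0.964%) in BRCA1del siLuciferase and 11 (1.90%) in BRCA1flox siBRCA1. Positions 3052 and 3068 each held 15 joins in BRCA1del siLuciferase and 5 in BRCA1flox siBRCA1. At 3065, 3066, 3067, 3070, 3071 and 3059 the counts ran from 9 to 13 in BRCA1del siLuciferase and from 5 to 7 in BRCA1flox siBRCA1. The lowest adjusted p over the 18 sites was 0.820 by the exact Mantel-Haenszel test.

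The way the bait and the array were joined was read from each junction. Blunt joins, with neither shared nor inserted bases, made up 15%, 15.2% and 19.4% of array joins in runs B, C and D of BRCA1del siLuciferase, against 15.8% and 9.52% in runs C and D of BRCA1flox siBRCA1. The groups differed by little in run C, at -0.570 points, and by 9.85 points in run D, where 12 blunt joins were counted in BRCA1flox siBRCA1. The difference over both runs was 2.85 points with an interval of -1.95 to 7.64 (exact Mantel-Haenszel p = 0.258, adjusted p = 0.670). The means were 16.5% ± 2.46 (SD, n = 3) and 12.6% ± 4.41 (SD, n = 2), between 20.1% ± 1.44 (SD, n = 3) in BRCA1del siBRCA1 and 8.45% ± 1.91 (SD, n = 2) in BRCA1flox siLuciferase.

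Joins with microhomology of 2 bp or more were the commonest class of array join in both groups. They made up 43.3%, 41.9% and 37.5% in runs B, C and D of BRCA1del siLuciferase, against 42.1% and 55.6% in runs C and D of BRCA1flox siBRCA1. In run D the Wilson 95% intervals were 30.4% to 45.2% in BRCA1del siLuciferase and 46.8% to 63.9% in BRCA1flox siBRCA1. Run C of the siRNA group lay among the libraries of the deletion group and run D above all of them. The difference was -6.10 points with an interval of -12.7 to 0.528 (exact Mantel-Haenszel p = 0.0738, adjusted p = 0.303). It was -0.270 points in run C and -18.1 points in run D, and with run D alone it passed (exact adjusted p = 0.0362). The odds ratios of runs C and D differed at an unadjusted exact p of 0.0189, adjusted p = 0.246 over the 13 shares. Run D also had the higher share in BRCA1flox siLuciferase, at 69.0% against 44.1% in run C, and in BRCA1del siBRCA1, at 45.6% against 36.5%, so that BRCA1del siLuciferase was the 1 group of these 4 with its lower value in run D.

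Longer microhomology gave the same order. Joins with 4 bp or more were 9.82%, 8.89% and 8.12% of array joins in BRCA1del siLuciferase, against 10.6% and 15.9% in BRCA1flox siBRCA1, without overlap. The difference of -3.70 points had an interval of -7.78 to 0.389 (exact Mantel-Haenszel p = 0.0932, adjusted p = 0.303). Overlaps of exactly 2 bp made up 22.9% of array joins in BRCA1del siLuciferase and 21.5% in BRCA1flox siBRCA1, those of 3 bp 9.52% and 12.4%, and those of 4 bp 6.75% and 8.47%. A single shared base was found in 24.7% of joins in BRCA1del siLuciferase and 22.0% in BRCA1flox siBRCA1.

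**Figure D4:**
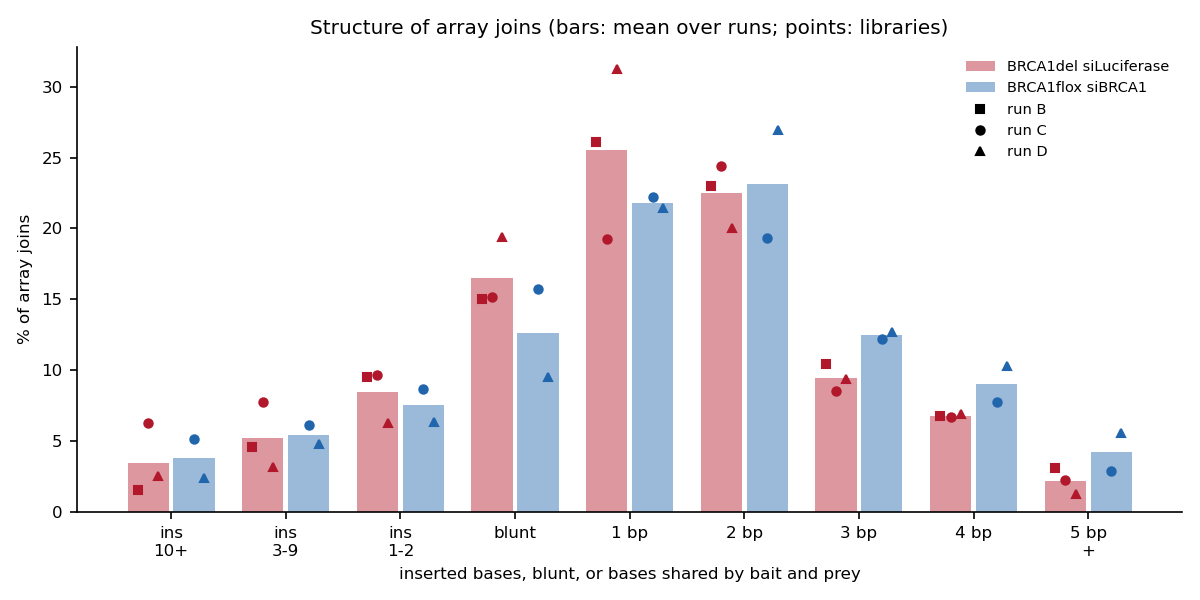
Structure of array joins, in percent of array joins with a called structure, by inserted bases, blunt joins and number of bases shared by bait and prey. Bars are means over libraries of BRCA1del siLuciferase (left of each pair) and BRCA1flox siBRCA1, points are libraries; 1 and 2 shared bases are the most frequent single lengths in both groups, and the run D points of the groups lie apart for blunt joins, at 19.4% and 9.52%.

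The words shared at the joins were counted next. Of 9 words with at least 10 array joins in runs C and D, 0 (0.0%) were called by the exact Mantel-Haenszel test, with 0 at an unadjusted p under 0.05, and Fisher's exact test on pooled junctions called 0 of 13. The most frequent word was TA, at 45 joins (5.95% of array joins) in BRCA1del siLuciferase and 25 (5.72%) in BRCA1flox siBRCA1. TT followed with 42 joins (5.56%) and 25 (5.72%), and ACTT, marked in the bait end above, with 20 (2.65%) and 14 (3.20%). AC had 20 and 14 joins and AAC 15 and 10, while AG, AGT, GA, CA and CT each had 10 to 14 joins in BRCA1del siLuciferase and 5 to 8 in BRCA1flox siBRCA1. Every overlap of 7 bp used TTTAGTT or GATATAT, and GATATAT was used in 2 joins of each group, at a bait loss of 38 bases. Among BRCA1del siLuciferase joins 10 of 756 had an overlap of 7 bp, against 9 of 437 in BRCA1flox siBRCA1.

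Inserted bases were found in a minority of array joins of each group. Insertions of 1 base or more were present in 15.6%, 23.7% and 11.9% of joins in runs B, C and D of BRCA1del siLuciferase, against 19.9% and 13.5% in runs C and D of BRCA1flox siBRCA1. Run C had the higher share in both groups, and the spread between runs of a group exceeded the difference of 2.0 points (interval -3.19 to 7.20, exact Mantel-Haenszel p = 0.482, adjusted p = 0.740). Insertions of 10 bases or more, 26 in BRCA1del siLuciferase and 19 in BRCA1flox siBRCA1, made up 1.53%, 6.30% and 2.50% against 5.14% and 2.38%, with a difference of 0.813 points (interval -1.99 to 3.62, exact Mantel-Haenszel p = 0.627, adjusted p = 0.815). The median insertion was 2.5 bases long in BRCA1del siLuciferase and 3 in BRCA1flox siBRCA1, and the longest 105 and 72 bases.

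Long insertions were searched for in the cassette and in the bait. A match to the cassette was found for 1 of 26 in BRCA1del siLuciferase and for 6 of 19 in BRCA1flox siBRCA1, 5 of them in run C. A match to the bait was found for 2 of 26 and 2 of 19. The same search in the cassette gave 2 of 25 in BRCA1del siBRCA1 and 4 of 36 in BRCA1flox siLuciferase. These counts were noticed after the data were seen and no test is given for them.

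The bait end itself was trimmed before most joins, counted back from the cut as inferred from the reads. A loss of 20 bp or more was found in 29.8%, 38.9% and 26.9% of array joins in runs B, C and D of BRCA1del siLuciferase, against 36% and 29.4% in runs C and D of BRCA1flox siBRCA1. The groups overlapped, with a difference of 1.12 points (interval -5.21 to 7.44, exact Mantel-Haenszel p = 0.773, adjusted p = 0.885). The median loss was 8, 13 and 8 bases in BRCA1del siLuciferase and 13 and 8 bases in BRCA1flox siBRCA1, with the same value in run C and in run D of both groups.

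At the other end of that distribution the libraries of the groups did not overlap. Joins made to the full bait end, with no base lost, were 44 of 326 (13.5%), 36 of 270 (13.3%) and 31 of 160 (19.4%) array joins in runs B, C and D of BRCA1del siLuciferase, against 25 of 311 (8.04%) and 7 of 126 (5.56%) in runs C and D of BRCA1flox siBRCA1. Every BRCA1del siLuciferase library lay above every BRCA1flox siBRCA1 library. The shares were 17.9%, 15% and 12.6% in BRCA1del siBRCA1 and 4.29% and 3.87% in BRCA1flox siLuciferase, so that the 2 BRCA1del groups overlapped each other and neither BRCA1flox group. This share was noticed after the data were seen, and its values are given as a description.

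The full bait end was also counted by orientation and join class, pooled over all runs. It was present in 91 of 678 (13.4%) leftward and 20 of 78 (25.6%) rightward array joins of BRCA1del siLuciferase, against 27 of 397 (6.80%) leftward and 5 of 40 (12.5%) rightward ones of BRCA1flox siBRCA1. Among blunt joins it was 38 of 121 (31.4%) in BRCA1del siLuciferase and 9 of 61 (14.8%) in BRCA1flox siBRCA1. Among joins with inserted bases it was 26 of 134 (19.4%) and 7 of 79 (8.86%), and among those with a single shared base 38 of 187 (20.3%) and 13 of 96 (13.5%). Among joins with 2 bp or more of microhomology it was low in both groups, at 9 of 314 (2.87%) and 3 of 201 (1.49%). Of those 9 joins, 7 came from run B, which BRCA1flox siBRCA1 lacks. In the shared runs the share was 1 of 113 (0.885%) in BRCA1del siLuciferase against 2 of 131 (1.53%) in BRCA1flox siBRCA1 in run C, and 1 of 60 (1.67%) against 1 of 70 (1.43%) in run D. In the other classes and in both orientations BRCA1del siLuciferase had the higher share in run C and in run D.

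The share was also read outside the array. Left of the array the full bait end was used in 16.2%, 11.9% and 21.1% of joins in runs B, C and D of BRCA1del siLuciferase, against 8.42% and 3.03% in runs C and D of BRCA1flox siBRCA1, from 24 of 158 and 9 of 128 joins. In the polyA region it was used in 33.0%, 21.4% and 19.7% in BRCA1del siLuciferase, against 25.9% and 21.0% in BRCA1flox siBRCA1, or 123 of 482 and 79 of 317 joins. The libraries of the groups overlapped in the polyA region and did not overlap left of the array, and the difference between the regions was not tested.

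**Figure D5:**
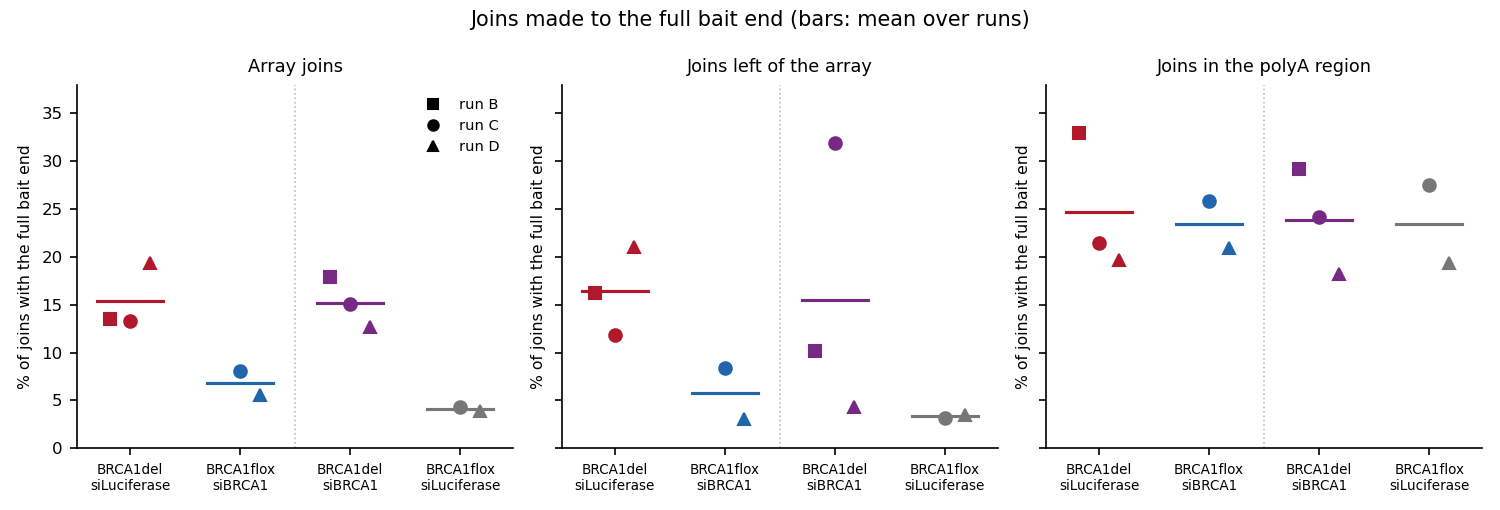
Joins made to the full bait end, in percent of joins with a called structure, in the array, left of the array and in the polyA region. Points are libraries (square run B, circle run C, triangle run D) and bars their means; in the array BRCA1del siLuciferase lies at 13.3% to 19.4% and BRCA1flox siBRCA1 at 5.56% and 8.04%, whereas in the polyA region both lie between 19.7% and 33.0%.

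The polyA region held 31.2%, 40.4% and 28.9% of all junctions in runs B, C and D of BRCA1del siLuciferase, against 38.3% and 28.4% in runs C and D of BRCA1flox siBRCA1. Its rightward share was 45.7%, 47.0% and 47.9% in BRCA1del siLuciferase and 46.9% and 50% (32 of 64) in BRCA1flox siBRCA1, with a difference of -0.423 points (interval -8.25 to 7.41, exact Mantel-Haenszel p = 0.936, adjusted p = 0.936). The leading site was 3910 leftward, with 17.1% of polyA joins in BRCA1del siLuciferase, 14.8% in BRCA1flox siBRCA1 and 19.4% in the EV cells. Site 3728 rightward held 8.96%, 11.1% and 8.42% in the same order, and 3855 rightward 6.92%, 7.72% and 6.26%. The same sites were thus used in cells without Tus, and these joins stand in the denominator of every body share above.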

How the data were processed

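Junctions of mouse embryonic stem cells were sequenced by LAM-HTGTS, per the labels. The authors deposited 1 table per group, whose values are positions, strands and read sequences (other values, not counts). The submitters' processing notes name Bowtie2 and mm9. How the authors filtered reads and treated duplicates is not given in the sources used here.

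Reads were used to rebuild the sequence of the cassette, and 1 base missing from the deposited coordinates was added (present in 352 of 353 spanning reads). The cut was placed from the same reads, at the first base that most reads matching all earlier bait bases did not keep. Full bait ends and bait losses are counted from that point. Bait and prey parts were extended from exact seeds of 10 and 12 bp, which called 99.4% of junctions, and the caller was checked on simulated joins. Of 4 sequencing runs, C and D hold both groups. Nothing ties a run to a labelled replicate number, although the number of runs equals the number of samples in each group. Shares were compared by exact conditional Mantel-Haenszel tests within runs, two-sided, with Benjamini-Hochberg adjustment over 13 shares and threshold 0.05. Risk differences have 95% Mantel-Haenszel intervals. Sites and words needed 10 joins in runs C and D. The 10 most frequent sites and words were named, and any that passed would have been. Members, measures and lists were chosen with earlier results of these data known. Alternatives were pooled runs, single runs, deduplication, other windows, seeds and minimum lengths. Python 3.11.15, NumPy 2.4.6, SciPy 1.17.1, pandas 2.3.3 and matplotlib 3.10.9 were used.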

Additional observations from a re-analysis of the deposited data

How the results depend on the processing

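Differences are in percentage points, BRCA1del siLuciferase minus BRCA1flox siBRCA1. Of 105 recomputed values, 88 kept their direction and side of the threshold, 16 turned sign, and 2 newly passed, of which 1 is among those that turned sign. The cause of these changes was not tested. With all runs pooled, which adds run B, the body share turned to 1.38, insertions to -0.353, insertions of 10 bases or more to -0.909 and bait loss to -1.69. Using 1 shared run at a time, the microhomology share of 2 bp or more ranged from -18.1 (run D alone, adjusted p = 0.0362, exact test) to -0.270 (run C alone). Sign turned with the run for Ter element 1 (-7.06 to 3.0), rightward array joins (-0.529 to 2.64), blunt joins (-0.570 to 9.85), insertions (-1.62 to 3.77), bait loss (-2.49 to 2.88) and rightward polyA joins (-2.05 to 0.0334). With joins that match in strand, position, far end of the cassette part and bait bases lost counted once, rightward polyA joins gave 0.445. With each position and strand counted once, no share turned sign or passed, but the body share was -5.77, insertions 7.31, insertions of 10 bases or more 1.72, microhomology of 2 bp or more -11.1, bait loss 2.98 and leftward joins left of the array -7.79 (unadjusted exact p = 0.0456, 0.0302, 0.286, 0.0151, 0.498 and 0.0328). Bait loss turned to -1.34 among uniquely placed joins, -0.865 among leftward joins, -3.86 at a minimum of 5 bp and -1.28 at 50 bp. At a minimum of 1 bp, an alternative chosen after the data were seen, it was -8.09 and passed (adjusted p = 0.00307, exact test), which is no independent test since the share was picked for its values. The array share of body joins kept its sign and did not pass under any alternative run here. No paired analysis was possible because the tables carry no replicate number, so none could pair labelled replicates. The main test was instead blocked by the shared runs C and D. Library sizes of 225 to 679 junctions in the shared runs leave intervals that reach 5 points or more to either side for 6 of the 13 shares.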
